A study of Mus musculus with 12 samples.

Results

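The adipogenic regulators and markers were 10 genes chosen by name, Pparg, Cebpa, Cebpb, Cebpd, Fabp4, Lpl, Plin2, Dlk1, Zfp423 and Klf5, of the 56941 genes in the count table. All 10 passed the filter on low counts and were among the 14810 genes tested. They were measured by RNA-seq in 3T3-L1 cells, a line of mouse embryonic fibroblasts that is widely used as a model of the preadipocyte, the precursor of the fat cell. The 12 libraries were from wild-type cells in 4 conditions with 3 libraries each, all after 24 hours. Control cells received vehicle, IL-4/13 was IL-4 at 50 ng/mL plus IL-13 at 50 ng/mL, Inf was a mixture of 0.5 ng/mL IL-1β, 20 ng/mL TNF-α and 50 ng/mL IL-17A, and IL-4/13 + Inf was all 5 cytokines together. The cells were a single line, no medium that drives fat cell differentiation is named for any condition, and no label says that replicates were separate cultures, so the p-values measure only the spread between these libraries, which may be technical.

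Total counts per library ranged from 13446005 to 20775769. Levels are given as CPM, which are counts scaled to the library size after normalization with edgeR's TMM method, and errors are SD over 3 libraries. Differences were tested in edgeR's quasi-likelihood fit of all 12 libraries, and a gene was called higher or lower at a Benjamini-Hochberg adjusted p over all tested genes below 0.05 together with a log2 change larger than 0.25 in size. The labelled cell type was checked first. All 10 listed fibroblast markers were tested, and their summed level was between 10331 and 19350 CPM in every library, highest in control (16578 to 19350 CPM) and lowest in IL-4/13 + Inf (10331 to 10738 CPM). Of 10 macrophage and leukocyte markers, 3 were tested, Csf1r, Lyz2 and Cd68, at control means of 3.54, 2.89 and 1.01 CPM. The summed level of the 10 was between 3.57 and 8.04 CPM, and Tyrobp and Cd3e were at 0 in every library. Of 8 epithelial and endothelial markers, 1 was tested, Cdh5, at means of 0.12 CPM in control and 0.85 CPM in Inf. By edgeR it was called higher in Inf (log2 fold change 2.73, SE 0.67, adjusted p = 0.0013). The summed level of the 8 was between 0.37 and 1.76 CPM, and Epcam and Krt5 were at 0. Of 24 genes of the mature fat cell, 12 had at most 3 counts in every library, among them Adipoq, which encodes the fat cell hormone adiponectin, and Plin1, which coats the large lipid droplet, while Lep, Ucp1, Adig and Adrb3 were at 0. Fibroblast markers were thus present, and 12 of the 24 mature fat cell genes were at or near 0 counts, in all 4 conditions. Another 8 of the 24 were tested, with control means from 0.52 CPM (Mgll) to 33.8 CPM (Acsl1), and are described below. In bulk RNA, fewer cells that express a gene and less RNA per cell cannot be told apart.

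Adipogenesis is a cascade of transcription factors. C/EBPβ and C/EBPδ, encoded by Cebpb and Cebpd, act early after the differentiation stimulus, and they activate Pparg and Cebpa, whose products PPARγ and C/EBPα maintain each other and switch on the genes of lipid uptake and storage. Klf5 and Zfp423 encode zinc finger factors that favor entry into the cascade, whereas Dlk1 (also known as Pref-1) encodes a surface protein that holds preadipocytes undifferentiated. Fabp4, Lpl and Plin2 encode a fatty acid carrier, a lipase that releases fatty acids from lipoproteins, and a coat protein of lipid droplets.

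The 250 bases before a start site are shown for 3 members, Pparg, Cebpa and Cebpb, because C/EBP and PPAR factors are known to bind near the starts of each other's genes. RefSeq promoters of the build GRCm38.p6 were matched for 6 of the 10 members, and those of Cebpd, Fabp4, Lpl and Klf5 were not. The motifs searched on both strands were C/EBP (TTGCNNAA), STAT (TTCNNNGAA), STAT6 (the STAT motif with 1 more base in its spacer), AP-1 (TGANTCA), NF-kB, the PPAR response element (AGGTCA repeated with 1 base between), KLF/Sp (GGGCGG) and the TATA box (TATAAA), and matches are in capitals. The stretches below lie before the most downstream of 3 listed Pparg starts (chr6:115421816-115422065), the Cebpa start (chr7:35119043-35119292) and the Cebpb start (chr2:167688665-167688914), all on the plus strand and outside annotated exons.
Pparg: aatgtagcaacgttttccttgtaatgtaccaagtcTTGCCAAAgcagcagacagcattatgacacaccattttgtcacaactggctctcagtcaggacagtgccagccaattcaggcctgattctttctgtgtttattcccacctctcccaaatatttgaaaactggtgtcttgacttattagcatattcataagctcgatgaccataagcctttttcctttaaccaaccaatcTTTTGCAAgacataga
Cebpa: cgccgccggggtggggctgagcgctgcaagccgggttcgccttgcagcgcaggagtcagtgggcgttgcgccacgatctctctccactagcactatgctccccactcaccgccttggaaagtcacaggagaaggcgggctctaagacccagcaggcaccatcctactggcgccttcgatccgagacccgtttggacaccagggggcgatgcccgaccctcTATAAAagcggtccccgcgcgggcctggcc
Cebpb: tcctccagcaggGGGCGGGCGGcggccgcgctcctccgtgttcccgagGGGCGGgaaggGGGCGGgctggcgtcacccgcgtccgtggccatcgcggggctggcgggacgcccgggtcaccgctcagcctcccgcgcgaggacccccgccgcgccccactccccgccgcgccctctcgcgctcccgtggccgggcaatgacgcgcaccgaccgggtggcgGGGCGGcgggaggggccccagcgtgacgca
The Pparg stretch held 2 C/EBP matches, TTGCCAAA at 215 to 208 bases before the start and, on the minus strand, TTTTGCAA at 16 to 9 bases before it. Of the 3 Pparg starts, only this one had a C/EBP match, and which start the cells used was not measured. A C/EBP match was present in 9.56% of all 32851 promoters of the same length. The Cebpa stretch held 1 match, a TATA box at 30 to 25 bases before the start (12.4% of all promoters), and the Cebpb stretch held 5 KLF/Sp matches, of which 2 overlapped (32.7%). The stretches before the other 2 Pparg starts held KLF/Sp and TATA matches, and the Dlk1 and Plin2 stretches held none of the listed motifs. The second of 2 listed Zfp423 starts also had a C/EBP match, at 131 to 124 bases before it. No stretch of a member held a STAT, STAT6, AP-1, NF-kB or PPAR match, which says only that these letters were not in these windows.

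To ask how the cytokines moved the cascade, each treated condition was compared with control. Inf changed all 10 members, with 4 called higher (Cebpb, Cebpd, Fabp4 and Plin2) and 6 called lower (Pparg, Cebpa, Klf5, Zfp423, Dlk1 and Lpl). Over all tested genes, 31.6% were called in this comparison, 16.3% higher and 15.3% lower. The 3 Inf libraries and the 3 control libraries did not overlap for any of the 10, compared with 48.0% of all tested genes. IL-4/13 + Inf against control, which uses the same control libraries, also had Cebpb, Cebpd, Fabp4 and Plin2 called higher and the other 6 lower (13.4% and 11.5% of all genes), and 9 of the 10, all but Zfp423, had no overlap between the groups (46.2% of all genes). IL-4/13 alone gave fewer calls, with Fabp4 higher and Cebpa and Dlk1 lower (2.78% and 2.57% of all genes). The 3 calls stood beside a background of 5.35% of all tested genes, and the other 7 were not called. The groups did not overlap for 7 members (26.4% of all genes). The median log2 fold change of the members was -0.49 in Inf, -0.47 in IL-4/13 + Inf and -0.20 in IL-4/13, each against control, and the median over all tested genes was within 0.01 of 0 in each of these comparisons.

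**Figure D1:**
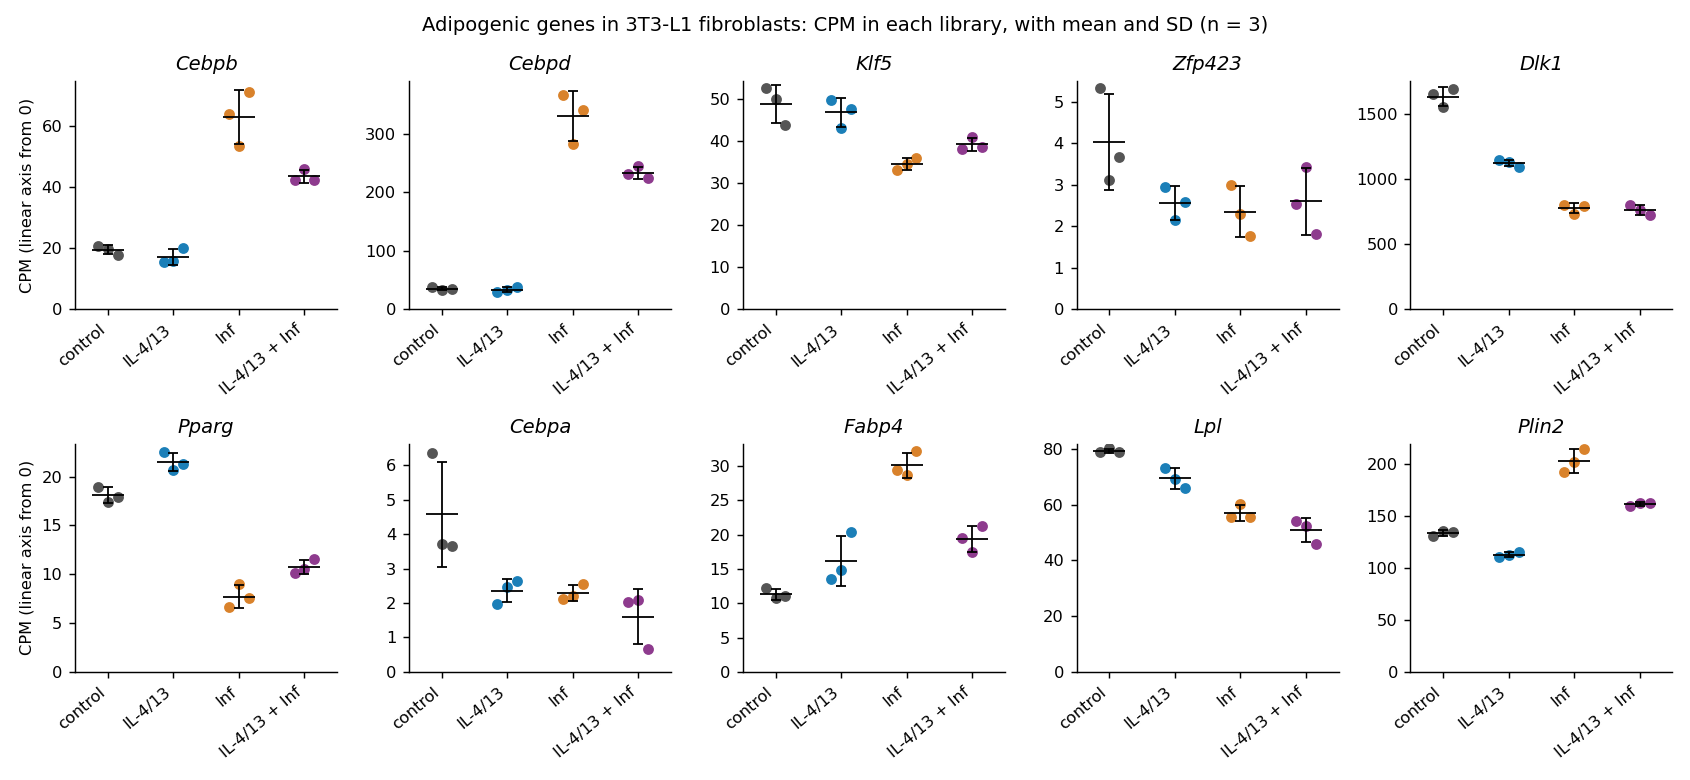
Level of each adipogenic gene in CPM (y axis, linear from 0, a scale of its own in each panel) in the 12 libraries, by condition on the x axis. Points are libraries, long horizontal lines are means and bars are SD of 3 libraries. Cebpb and Cebpd stand highest in Inf and next in IL-4/13 + Inf, whereas Pparg is lowest in Inf and Dlk1 is at its lowest in both conditions with Inf.

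Cebpd had the largest response of the 10 members. The control libraries held 38.3, 33.1 and 34.0 CPM and those of IL-4/13 held 30.1, 33.1 and 37.8 CPM. Inf reached 366, 282 and 341 CPM, and IL-4/13 + Inf reached 231, 244 and 224 CPM. Every library with Inf stood far above every library without it, and control and IL-4/13 overlapped. The mean in Inf was 9.39-fold that in control (log2 fold change 3.23, SE 0.11, adjusted p = 2.7e-10), and IL-4/13 alone left it at -0.07 (SE 0.12, adjusted p = 0.81).

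Cebpb followed the same order at a smaller scale. Control libraries were at 20.8, 19.8 and 17.8 CPM and IL-4/13 libraries at 15.5, 15.7 and 19.99 CPM. With Inf the level was 64, 53.5 and 71.2 CPM, and with IL-4/13 + Inf it was 42.4, 46.0 and 42.2 CPM. The Inf libraries did not overlap with those of any other condition. The mean in Inf was 3.23-fold that in control (log2 fold change 1.69, SE 0.10, adjusted p = 3.5e-12), and the log2 fold change with IL-4/13 alone was -0.20 (SE 0.11, adjusted p = 0.34).

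Each of these genes shares exon sequence with a gene annotated on the opposite strand. Spidr, a DNA repair gene that overlaps Cebpd, had 699 to 1506 counts per library and was also called higher in Inf (log2 fold change 0.46, SE 0.06, adjusted p = 4.4e-08). Peds1, which encodes a desaturase of ether lipids and overlaps Cebpb, had 420 to 801 counts and changed by 0.27 (SE 0.07, adjusted p = 0.0019). In IL-4/13 + Inf against Inf, Spidr was called lower (-0.27, SE 0.06, adjusted p = 3.9e-04), and Peds1 was not called (0.04, SE 0.07, adjusted p = 0.72). The libraries were made with a stranded kit, but the strand setting of the counting is not given in the sources used here, and the part of shared reads in these values was not tested.

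The factors that follow in the cascade moved the other way. Pparg was at 19.0, 17.4 and 17.9 CPM in the control libraries, at 6.65, 8.96 and 7.52 CPM with Inf, and at 10.2, 10.6 and 11.5 CPM with IL-4/13 + Inf. The 3 conditions did not overlap, with Inf the lowest. The control mean was 2.34-fold that in Inf (log2 fold change -1.22, SE 0.11, adjusted p = 1.2e-10) and 1.68-fold that in IL-4/13 + Inf (log2 fold change -0.75, SE 0.10, adjusted p = 6.7e-07). With IL-4/13 alone, Pparg was 22.6, 20.7 and 21.2 CPM, above all 3 control libraries, but the log2 fold change of 0.25 (SE 0.10) did not pass the test (adjusted p = 0.12).

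Cebpa was measured with 10 to 111 counts per library, the lowest minimum of the 10 members. The control libraries held 6.34, 3.72 and 3.66 CPM. IL-4/13 gave 1.98, 2.46 and 2.65 CPM, Inf gave 2.13, 2.19 and 2.55 CPM, and IL-4/13 + Inf gave 2.03, 2.08 and 0.67 CPM. All treated libraries were below all control libraries, and IL-4/13 overlapped with Inf and with IL-4/13 + Inf, while Inf and IL-4/13 + Inf did not overlap. The log2 fold change against control was -0.97 (SE 0.27, adjusted p = 0.024) in IL-4/13, -1.003 (SE 0.27, adjusted p = 0.0034) in Inf and -1.48 (SE 0.28, adjusted p = 1.2e-04) in IL-4/13 + Inf. Control replicate 1 was high, and without it the log2 fold change was -0.65 in IL-4/13 (adjusted p = 0.23) and -0.68 in Inf (adjusted p = 0.062), and neither was called. The call in IL-4/13 was also lost without IL-4/13 replicate 1 (adjusted p = 0.15) or replicate 2 (adjusted p = 0.067), whereas that in IL-4/13 + Inf held without any single library.

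**Figure D2:**
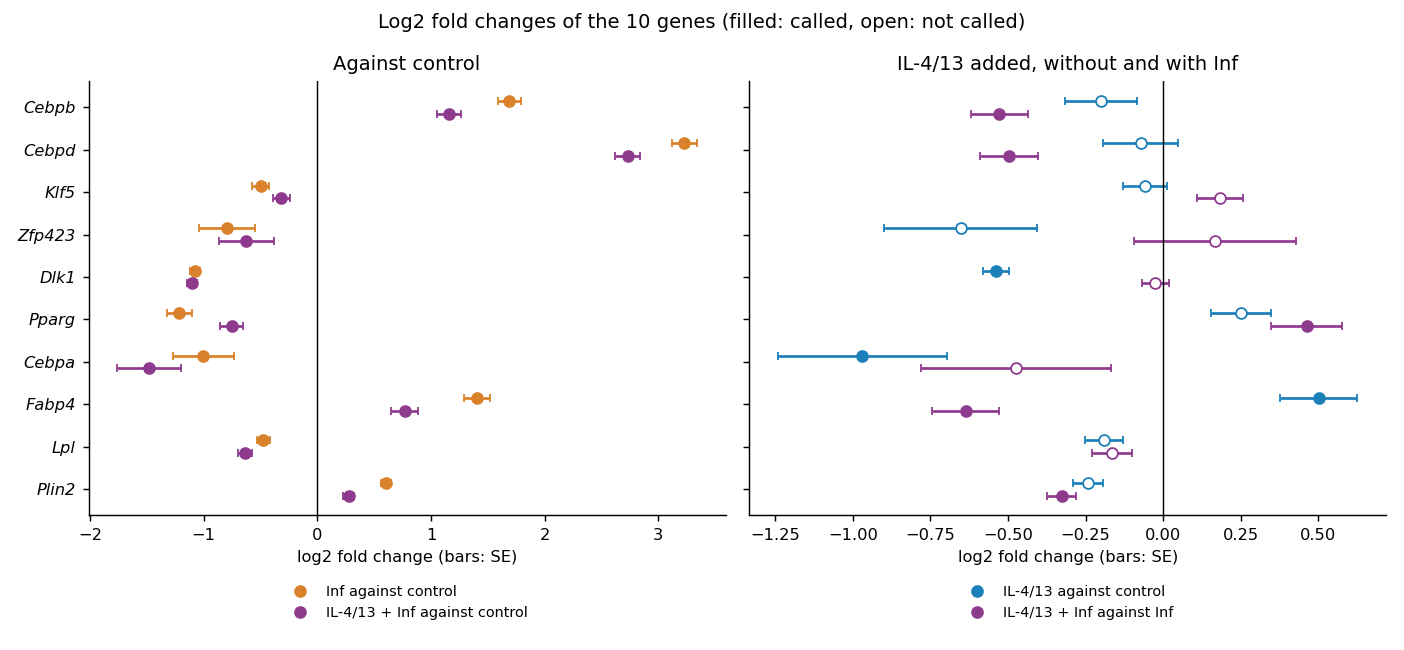
Log2 fold change of the 10 genes (x axis), with bars of 1 SE, for Inf and IL-4/13 + Inf against control (left) and for IL-4/13 added without Inf and with Inf (right). Filled points were called and open points were not. The left panel shows the rise of Cebpb and Cebpd (log2 fold changes of 1.69 and 3.23 in Inf) beside the fall of Pparg and Cebpa (-1.22 and -1.003). The comparisons within a panel share libraries in the left panel but not in the right.

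Among the members that act before or against the cascade, Dlk1 was by far the most abundant. The control libraries were at 1651, 1552 and 1691 CPM and those with IL-4/13 alone at 1142, 1133 and 1094 CPM. The level was 801, 730 and 790 CPM with Inf and 799, 758 and 723 CPM with IL-4/13 + Inf. Control, IL-4/13 and the conditions with Inf formed 3 levels without overlap, and Inf and IL-4/13 + Inf overlapped. The log2 fold change against control was -0.54 (SE 0.04, adjusted p = 1.2e-10) in IL-4/13, -1.08 (SE 0.04, adjusted p = 4.4e-19) in Inf and -1.10 (SE 0.04, adjusted p = 2.3e-19) in IL-4/13 + Inf. The level of this inhibitor of differentiation was lower than control in every treated library.

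Klf5, which is known to act downstream of the early C/EBP factors and upstream of Pparg, was at 52.6, 50.2 and 43.9 CPM in the control libraries and at 33.3, 34.6 and 36.0 CPM with Inf. These did not overlap, and the log2 fold change was -0.50 (SE 0.07, adjusted p = 1.6e-06). In IL-4/13 + Inf it was 38.2, 41.1 and 38.6 CPM, between control and Inf (log2 fold change against control -0.31, SE 0.07, adjusted p = 8.1e-04), and in IL-4/13 it overlapped with control (49.8, 43.1 and 47.9 CPM). Zfp423, a factor that marks cells committed to the fat lineage, had 27 to 93 counts per library. With IL-4/13 alone it was at 2.95, 2.14 and 2.57 CPM, below all control libraries, but the log2 fold change of -0.65 (SE 0.25) was not called (adjusted p = 0.11), except in a fit of only the libraries compared (adjusted p = 0.047). Its control libraries held 5.31, 3.10 and 3.66 CPM and its Inf libraries 2.99, 2.29 and 1.76 CPM (log2 fold change -0.79, SE 0.25, adjusted p = 0.010). With IL-4/13 + Inf it was at 2.53, 3.43 and 1.82 CPM, which overlapped with control (log2 fold change -0.62, SE 0.24, adjusted p = 0.047). These calls were weak. The first was lost without control replicate 1 (log2 fold change -0.53, adjusted p = 0.13) or Inf replicate 3 (adjusted p = 0.052), and the second in 8 of 12 fits that left out 1 library, with adjusted p from 0.017 to 0.36.

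The 3 genes of lipid uptake, transport and storage did not move together. Fabp4, a classical target of PPARγ, was at 12.2, 10.7 and 11.0 CPM in the control libraries and at 29.4, 28.7 and 32.2 CPM with Inf, which did not overlap. The Inf mean was 2.66-fold the control mean (log2 fold change 1.41, SE 0.12, adjusted p = 9.1e-11), in the condition in which Pparg was lowest. In IL-4/13 alone Fabp4 was 13.5, 14.8 and 20.4 CPM (log2 fold change 0.50, SE 0.12, adjusted p = 0.0093), and without IL-4/13 replicate 3, the highest, the value was 0.32 (adjusted p = 0.10) and was not called.

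Plin2 had the same direction as Fabp4 in Inf but not in IL-4/13. From the lowest condition to the highest, IL-4/13 gave 110.3, 112 and 115 CPM, control 130, 135 and 134 CPM, IL-4/13 + Inf 159, 162 and 163 CPM and Inf 191, 202 and 214 CPM. No library of one condition overlapped with those of another. The log2 fold change was 0.60 (SE 0.05, adjusted p = 3.2e-12) in Inf and 0.28 (SE 0.05, adjusted p = 1.5e-05) in IL-4/13 + Inf, and in IL-4/13 it was -0.24 (SE 0.05, adjusted p = 7.3e-04), just short of the fold threshold. Of the 50-base words of the longest Plin2 transcript, 4.89% also occur in Gm12551, so some reads could be counted for either gene.

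Lpl went down. The control libraries stood at 78.9, 80.1 and 78.9 CPM, followed by IL-4/13 at 73.0, 69.3 and 65.8 CPM, Inf at 55.5, 60.2 and 55.4 CPM and IL-4/13 + Inf at 54.2, 52.2 and 46.0 CPM. Control was above every treated library, and each of the treated conditions was below the one before it in this order without overlap. The log2 fold change against control was -0.47 (SE 0.06, adjusted p = 1.9e-07) in Inf and -0.64 (SE 0.06, adjusted p = 6.4e-10) in IL-4/13 + Inf. In IL-4/13 it was -0.19 (SE 0.06, adjusted p = 0.048), which is smaller than the fold threshold.

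The next question was how the addition of IL-4/13 changed the response to Inf. In IL-4/13 + Inf against Inf, 1 member was called higher (Pparg) and 4 lower (Cebpb, Cebpd, Fabp4 and Plin2), compared with 7.55% and 7.00% of all tested genes. Against control, Inf had lowered Pparg and raised the other 4, in a comparison that uses the same Inf libraries. Pparg was 1.40-fold higher than in Inf (log2 fold change 0.46, SE 0.12, adjusted p = 0.0036), Cebpb was lower, at a log2 value of -0.53 (SE 0.09, adjusted p = 1.8e-04), Cebpd by -0.50 (SE 0.09, adjusted p = 0.0026), Fabp4 by -0.64 (SE 0.11, adjusted p = 6.9e-05) and Plin2 by -0.33 (SE 0.05, adjusted p = 2.7e-06). The libraries of the 2 conditions did not overlap for any of them, and over the 10 members they did not overlap for 8 (35.1% of all genes). Of the difference in CPM between Inf and control, IL-4/13 + Inf kept 40.7% for Plin2, 42.9% for Fabp4, 55.3% for Cebpb, 67.2% for Cebpd and 70.6% for Pparg. These 5 were called in the direction opposite to the Inf change, so that only part of it was left followed from the choice. For the members not called, the share was 67.1% for Klf5, 85.3% for Zfp423, 102% for Dlk1, 128% for Lpl and 130% for Cebpa. The comparison with Inf and the share both use the Inf libraries, so an Inf library that lay far from control by chance would make the share smaller. The other 5 members were not called. Klf5 was above Inf in all 3 libraries (log2 fold change 0.18, SE 0.07, adjusted p = 0.075). Lpl was below it in all 3 (-0.17, SE 0.06, adjusted p = 0.059), and so was Cebpa (-0.47, SE 0.31, adjusted p = 0.30). Dlk1 (-0.03, SE 0.04, adjusted p = 0.73) and Zfp423 (0.17, SE 0.26, adjusted p = 0.71) overlapped with Inf.

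The addition of Inf was also compared within the cells that received IL-4/13. In IL-4/13 + Inf against IL-4/13, 3 members were called higher (Cebpb, Cebpd and Plin2) and 4 lower (Pparg, Lpl, Dlk1 and Klf5), compared with 13.3% and 11.0% of all genes, and the libraries did not overlap for 7 of the 10 (47.4%). The log2 fold change was 2.80 (SE 0.11, adjusted p = 1.5e-09) for Cebpd, 1.36 (SE 0.11, adjusted p = 4.7e-10) for Cebpb and -1.005 (SE 0.10, adjusted p = 2.6e-09) for Pparg. Fabp4 was not called here (0.27, SE 0.12, adjusted p = 0.079), although it was without IL-4/13 replicate 3 (0.45, adjusted p = 0.0018). It stayed uncalled in 10 of 12 fits that left out 1 library. It also stayed uncalled in 6 of 7 fits with another tool, normalization, filter, block or set of libraries (lowest adjusted p 0.0495). The Klf5 call (-0.26, SE 0.07, adjusted p = 0.0064) lay at the fold threshold and was lost in 5 of 12 fits that left out 1 library.

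Whether the response to IL-4/13 differed with and without Inf was tested by the interaction, which is the log2 fold change by IL-4/13 with Inf minus that without it. It was called for 2 of the 10 members, compared with 3.11% of all tested genes, once higher with Inf (1.52%) and once lower (1.59%). For Fabp4, IL-4/13 raised the level without Inf (0.50) and lowered it with Inf (-0.64), and the interaction was -1.14 (SE 0.16, adjusted p = 6.3e-05). The rise without Inf was 0.32 and not called without IL-4/13 replicate 3 (adjusted p = 0.10), whereas the Fabp4 interaction stayed called in all 12 fits that left out 1 library. For Dlk1, IL-4/13 lowered the level without Inf (-0.54) and left a log2 fold change of -0.03 with Inf, and the interaction was 0.51 (SE 0.06, adjusted p = 1.8e-06). For Pparg, the 2 responses had the same sign (0.25 and 0.46), and the interaction of 0.21 (SE 0.15, adjusted p = 0.61) was not called. For Cebpd the interaction of -0.43 (SE 0.15) was not called (adjusted p = 0.21), although it was by DESeq2 (adjusted p = 0.013), by edgeR with no filter on low counts (adjusted p = 5.0e-05) and by edgeR without Inf replicate 2 (-0.53, adjusted p = 0.0024). For Cebpb it was -0.33 (SE 0.15, adjusted p = 0.30). A response that was called with Inf and not without it was therefore not shown to differ for Pparg, Cebpb or Plin2 (interaction -0.08, SE 0.07, adjusted p = 0.64).

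**Figure D3:**
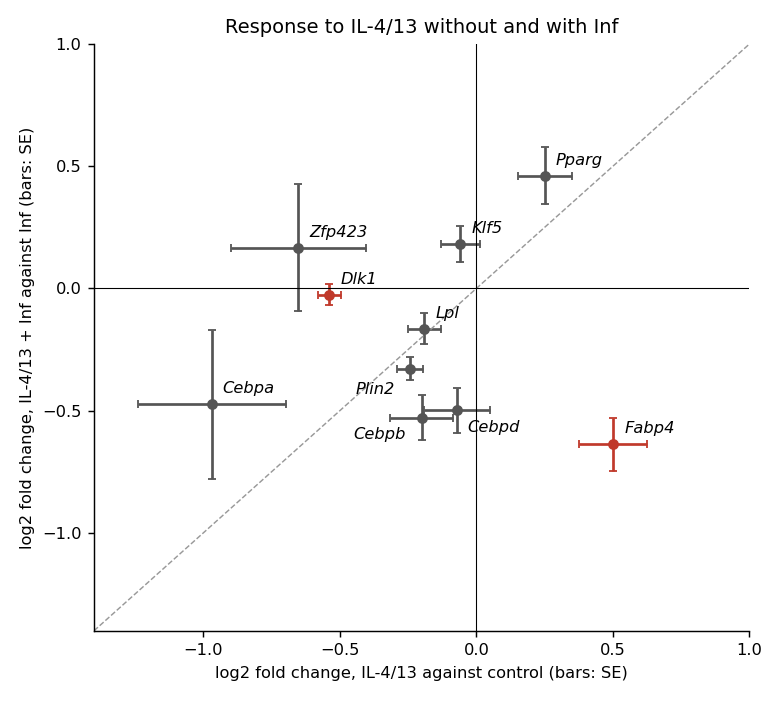
Log2 fold change by IL-4/13 without Inf (x axis) against that with Inf (y axis) for the 10 genes, with bars of 1 SE and a dashed line of equal response. The 2 genes with a called interaction are red. Fabp4 lies at 0.50 and -0.64, Dlk1 at -0.54 and -0.03, and Pparg is above 0 on both axes (0.25 and 0.46).

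To compare the members with each other, CPM were divided by the length in kb of the longest annotated transcript. In control the order of these levels was Dlk1 (351 ± 15.4 CPM per kb), Plin2 (70.5 ± 1.41), Lpl (19.3 ± 0.18), Klf5 (14.6 ± 1.34), Cebpb (12.9 ± 1.01), Cebpd (9.38 ± 0.75), Pparg (8.51 ± 0.39), Fabp4 (2.68 ± 0.19), Cebpa (1.74 ± 0.58) and Zfp423 (0.82 ± 0.23). Klf5 and Cebpb overlapped in their libraries, as did Cebpd and Pparg. Dlk1 ranked 147 of 14614 tested genes with a length. In Inf, Cebpd rose from 9.38 to 88.1 ± 11.5 CPM per kb and was the third of the order, below Dlk1 (166 ± 8.23) and Plin2 (107 ± 5.94), while Pparg (3.63 ± 0.55) was the eighth, above Cebpa (0.87 ± 0.09) and Zfp423 (0.48 ± 0.13). The longest Fabp4 transcript is annotated as a retained intron. With its protein-coding transcript of 896 bases, a choice made after the data were seen, the Fabp4 level was 12.6 ± 0.88 CPM per kb in control and 33.6 ± 2.06 in Inf, close to Cebpb in control. Which transcripts were present was not measured, so this order depends on the annotation.

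The make-up of the 3 C/EBP mRNAs followed from these levels. Of the summed counts per kb of Cebpa, Cebpb and Cebpd, Cebpb held the largest share in control (52.2% to 56.2%), Cebpd held 37.7% to 40.7% and Cebpa 6.06% to 9.12%. With IL-4/13 alone Cebpb still held the largest share (51.6% to 54.5%), and Cebpa was lower, at 3.95% to 4.64%. With Inf, Cebpd became the largest part (65.3% to 69.3%), Cebpb held 30.2% to 34.0%, and Cebpa was at 0.57% to 0.75%. IL-4/13 + Inf was close to Inf, with 67.5% to 68.1% for Cebpd and 0.29% to 0.85% for Cebpa. The ratio of Cebpd to Cebpa counts per kb was 4.24 to 6.52 in control, 9.43 to 10.6 in IL-4/13, 90.4 to 121 in Inf and 79.7 to 233 in IL-4/13 + Inf. The highest of these, in IL-4/13 + Inf replicate 3, rests on 10 counts of Cebpa. The ratio of Cebpd to Cebpb was 0.67 to 0.77 in control and 1.92 to 2.30 in Inf, and division by length does not affect the change in this ratio. The order in control does depend on it, since the annotated lengths of Cebpb and Cebpd are 1504 and 3746 bases and, in CPM without division by length, Cebpd was above Cebpb already in control (means of 35.1 and 19.5 CPM) and in the other 3 conditions.

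**Figure D4:**
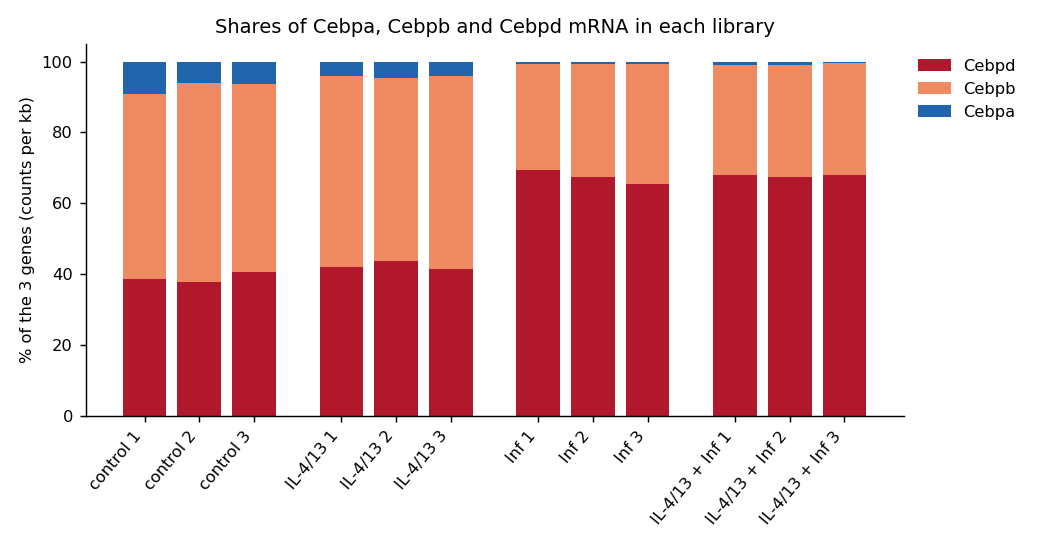
Shares of Cebpa, Cebpb and Cebpd (y axis, percent of their summed counts per kb of the longest transcript) in each of the 12 libraries (x axis, condition and replicate number). Cebpd grows from 37.7% to 40.7% of the sum in control to 65.3% to 69.3% in Inf, and Cebpa shrinks from 6.06% to 9.12% to at most 0.75%.

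Other genes of adipogenesis were examined in 6 lists that held none of the 10 members. Their counts are to be read beside the shares of all tested genes called, which were 31.6% in Inf (16.3% higher, 15.3% lower), 5.35% in IL-4/13 alone (2.78% and 2.57%) and 14.6% in IL-4/13 + Inf against Inf (7.55% and 7.00%). Of 28 further pro-adipogenic regulators, 26 were tested, and in Inf 5 were called higher and 5 lower, near the 16.3% and 15.3% of all tested genes, with a median log2 fold change of -0.06. The largest changes were falls of coactivators and of a lineage factor: Ppargc1b, a coactivator of nuclear receptors, was at 0.40 CPM in Inf and 1.70 CPM in control (log2 fold change -2.12, SE 0.41, adjusted p = 9.1e-05), Ebf2, a factor of the brown fat lineage, was at 1.11 and 3.65 CPM (-1.73, SE 0.27, adjusted p = 4.7e-06), and Ppargc1a was at 0.49 and 1.55 CPM (-1.63, SE 0.43, adjusted p = 0.0026). These coactivators and Ebf2 had at most 3.65 CPM in control. Of the 5 called higher, Stat5a changed most, at 31.9 CPM in Inf and 13.5 CPM in control (1.24, SE 0.09, adjusted p = 1.7e-12). The others were Zfp467, Nr1h3, Insr and Klf9. In IL-4/13 alone, only Klf9 of this list was called (0.45, SE 0.06, adjusted p = 3.3e-06). On addition of IL-4/13 to Inf, Nr3c1, the glucocorticoid receptor, fell (-0.42, SE 0.05, adjusted p = 1.4e-07), as did Zfp467 (-0.35, SE 0.12, adjusted p = 0.032), while Klf4, an activator of Cebpb, was higher (0.26, SE 0.09, adjusted p = 0.031).

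Of 28 listed inhibitors of adipogenesis, 25 were tested, and in Inf 5 were called higher and 10 lower (16.3% and 15.3% of all genes), with a median log2 fold change of -0.18. Hes1, a repressor downstream of Notch, was at 4.69 CPM in Inf and 20.5 CPM in control (-2.13, SE 0.11, adjusted p = 4.5e-16). Nr2f2 (COUP-TFII), a repressor of Pparg, was at 53.6 and 133 CPM (-1.31, SE 0.05, adjusted p = 1.8e-19), and Foxc2 was at 11.5 and 27.6 CPM (-1.26, SE 0.09, adjusted p = 1.0e-12). Among the 5 called higher in Inf were Klf2 (0.42, SE 0.12, adjusted p = 0.0061) and Wnt5a (0.28, SE 0.06, adjusted p = 1.8e-04). Gata3, which represses Pparg, was the only gene of this list called higher in IL-4/13 alone, with log2 fold changes of 0.77 (SE 0.18, adjusted p = 0.0045) without Inf and 1.06 (SE 0.19, adjusted p = 1.1e-04) with Inf against Inf. IL-4/13 alone lowered 5 of the list (2.57% of all genes), among them Klf2 (-0.54, SE 0.13, adjusted p = 0.0083) and Trib3 (-0.45, SE 0.06, adjusted p = 7.1e-06). With Inf present, IL-4/13 raised 3 and lowered 4 (7.55% and 7.00% of all genes), among them Hes1 (-0.58, SE 0.15, adjusted p = 0.0038) and Zfp521, an opponent of Zfp423 and Ebf factors (-0.50, SE 0.07, adjusted p = 1.3e-06).

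Of the remaining C/EBP genes and their leucine zipper partners, 11 of 12 were tested, and in Inf 4 were called higher and 5 lower (16.3% and 15.3% of all genes), with a median of -0.32. Hlf, a factor related to the C/EBP family, responded to each stimulus, from a control mean of 1.29 CPM to means of 6.89 CPM with IL-4/13, 3.88 CPM with Inf and 6.50 CPM with IL-4/13 + Inf. Its log2 fold change was 2.40 (SE 0.21, adjusted p = 1.0e-09) in IL-4/13 and 1.58 (SE 0.23, adjusted p = 1.2e-06) in Inf. Atf3, a stress factor, rose in Inf (0.82, SE 0.18, adjusted p = 4.5e-04), and Atf5 fell from 507 to 277 CPM (-0.87, SE 0.04, adjusted p = 1.5e-16). On addition of IL-4/13 to Inf, 4 of these genes rose and none was called lower (7.55% and 7.00% of all genes), whereas Cebpb and Cebpd fell, with 0.74 for Hlf (SE 0.18, adjusted p = 0.0024), 0.60 for Nfil3 (SE 0.06, adjusted p = 1.1e-08) and 0.52 for Atf3 (SE 0.16, adjusted p = 0.016). IL-4/13 alone raised Nfil3 (0.53, SE 0.07, adjusted p = 1.4e-06) and lowered Ddit3, a C/EBP inhibitor (-0.41, SE 0.07, adjusted p = 2.2e-04).

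Of the 24 mature fat cell genes, 8 were tested, and their summed level, with the untested ones, ranged from 136 to 145 CPM in control and from 137 to 140 CPM with IL-4/13, and was higher with Inf (209 to 215 CPM) and IL-4/13 + Inf (201 to 206 CPM). In Inf, 4 were called higher and 1 lower (16.3% and 15.3% of all genes). Dgat2, which completes the synthesis of triglycerides, was at 34.3 ± 2.40 CPM in Inf and 5.50 ± 0.35 CPM in control (log2 fold change 2.64, SE 0.10, adjusted p = 1.6e-19). The hormone-sensitive lipase Lipe rose by 0.75 (SE 0.11, adjusted p = 2.6e-06) and Acsl1, which activates fatty acids, by 0.67 (SE 0.06, adjusted p = 4.2e-10). The gene called lower in Inf was Plin4 (-0.59, SE 0.12, adjusted p = 1.2e-04). IL-4/13 alone changed none of the 8 at the call (edgeR), and added to Inf it lowered Plin4 further (-0.79, SE 0.13, adjusted p = 4.1e-05). Of 20 further genes of lipid droplets and lipid handling, 15 were tested, and Inf raised 6 and lowered none (16.3% and 15.3% of all genes). Angptl4, a secreted inhibitor of lipoprotein lipase, was at 170 ± 2.35 CPM in Inf and 50.5 CPM in control (1.75, SE 0.06, adjusted p = 9.8e-22). Lpl mRNA fell in Inf, and a link between these changes was not tested. Lipa, the lysosomal acid lipase, rose by 1.53 (SE 0.05, adjusted p = 8.6e-22) and Lpin1 by 0.45 (SE 0.08, adjusted p = 2.1e-05). In IL-4/13 alone, Angptl4 rose by 0.58 (SE 0.06, adjusted p = 1.0e-08) and Lpin1 by 0.33 (SE 0.08, adjusted p = 0.0069), and Vldlr, a receptor for lipoproteins, fell (-0.29, SE 0.06, adjusted p = 8.3e-04). Added to Inf, IL-4/13 lowered 3 of these genes (7.00% of all genes), Plin3 (-0.30, SE 0.05, adjusted p = 1.8e-05), Hilpda (-0.29, SE 0.09, adjusted p = 0.024) and Vldlr (-0.26, SE 0.06, adjusted p = 0.0013).

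Surface and progenitor genes of preadipocytes changed singly. Of 12 listed, 9 were tested, and in Inf 1 was called higher and 3 lower, beside 16.3% and 15.3% of all genes. Bst1 was at 4.61 CPM in Inf and 1.00 CPM in control (log2 fold change 2.18, SE 0.28, adjusted p = 2.0e-07), Cd55 was lower (-0.85, SE 0.21, adjusted p = 0.0013), and so was Cd24a (-0.38, SE 0.10, adjusted p = 0.0028). Cd34, a marker of fat precursors in tissue, was at 6.72 CPM in IL-4/13 + Inf and 2.23 CPM in Inf (1.59, SE 0.21, adjusted p = 1.2e-06), and it was also called higher in IL-4/13 alone (0.76, SE 0.24, adjusted p = 0.045). Ly6a (Sca-1) was lower in IL-4/13 + Inf than in Inf (-0.55, SE 0.08, adjusted p = 2.4e-06). Cd55 shares 10.9% of its 50-base words with Cd55b and Ly6a 10.04% with its relatives, so their counts are uncertain. Of the 10 fibroblast markers, Inf raised 3, led by the proteoglycan Lum (3.31, SE 0.14, adjusted p = 2.2e-18) and the PDGF receptor Pdgfra, which also marks fat precursors (0.97, SE 0.07, adjusted p = 1.3e-09), and lowered 5 (16.3% and 15.3% of all genes). Adding IL-4/13 to Inf lowered 5 (7.00% of all genes), among them Pdgfra (-0.78, SE 0.07, adjusted p = 1.2e-07), and raised none of them. IL-4/13 alone lowered 4 (2.57% of all genes), among them Pdgfrb (-0.65, SE 0.09, adjusted p = 5.0e-04) and Col3a1 (-0.48, SE 0.05, adjusted p = 3.4e-08).

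**Figure D5:**
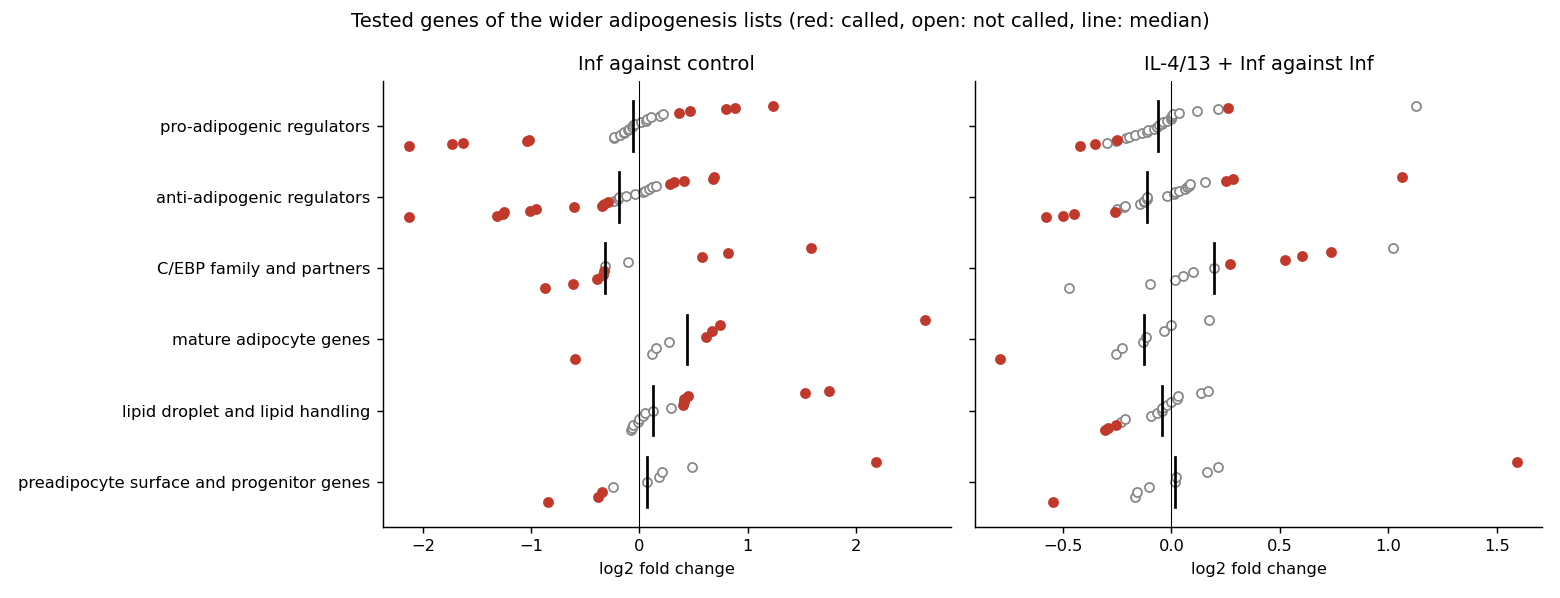
Log2 fold change (x axis) of each tested gene of 6 adipogenesis lists (y axis) for Inf against control (left) and IL-4/13 + Inf against Inf (right). Red points were called, open points were not, and black lines are list medians. Batf, with 0 counts in every control library, has no point on the left. In the left panel all 6 called genes of lipid handling are above 0, and 10 of the 15 called inhibitors are below 0.

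For each member, the gene with the most similar pattern over the 12 libraries was found as the smallest root mean square distance between log2 CPM, each centered on its own mean, among 4650 genes with an SD of at least 0.3. Causes of a shared pattern were not tested. For Cebpd the nearest gene was Nfkbiz (distance 0.13, beside an SD of 1.59 for Cebpd itself). For Dlk1 the nearest was Trib3 (0.10), for Plin2 Nnmt (0.05), for Pparg Ndst4 (0.09), for Cebpb Macrod1 (0.13), for Lpl Emp1 (0.09) and for Fabp4 Gm12070 (0.20). Klf5 was nearest to AC148020.1 (0.12) and Zfp423 to Cyb561 (0.17). For Cebpa it was S100a7a (0.30). The members' own SD was 0.71 for Cebpa, 0.55 for Fabp4 and 0.43 for Zfp423, so these matches were looser than that of Cebpd. The SD of Klf5 (0.22) and of Lpl (0.27) was below the minimum set for the genes searched, so their matches were drawn from genes that varied more than they did.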

How the data were processed

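RNA from 12 libraries of 3T3-L1 cells was selected for polyadenylated transcripts and sequenced with a stranded kit. The values deposited by the authors are raw counts, which they did not normalize. The submitters' processing notes name STAR, featureCounts and GRCm39, and the versions, annotation and strand setting are not given in the sources used here.

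Low counts were removed by condition with filterByExpr of edgeR (at least 10 counts, and 15 in total). The 14810 tested genes were normalized by TMM and fitted in all 12 libraries with the robust quasi-likelihood model of edgeR 4.0.16 (R 4.3.3, limma 3.58.1), with Benjamini-Hochberg adjustment within each comparison. The test gives no SE, so each SE is the size of the log2 fold change divided by the square root of the F value. The thresholds, 0.05 and a log2 fold change of 0.25, were those that the methods give for pseudobulk genes. The methods name DESeq2, which was run as an alternative (1.42.0). Counts were also simulated from means and dispersions estimated in these data, with 200 genes changed in the IL-4/13 libraries. Fitting them checks the code and not the assumptions of the model. Tables and figures used matplotlib 3.10.9, numpy 2.4.6 and pandas 2.3.3 in Python 3.11.15.

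The members, the wider lists and the tests were chosen with earlier results of these data known. All members were described. From each wider list the genes named were, for IL-4/13 + Inf against Inf, IL-4/13 against control and Inf against control, up to 3 called genes with the largest change and a mean of at least 1 CPM in 1 group. For Inf, some called genes that moved the other way were also named. No label or header gave a batch that separates the libraries. Transcript lengths, exon overlaps and shared 50-base words were from GENCODE M21 (GRCm38) and start sites from RefSeq (GRCm38.p6). These builds differ from that of the counts, whose table gives no coordinates. No pair of replicates held identical values. In Inf, the counts of replicate 3 stood apart, with a chi-square per degree of freedom of 8.58 and 8.21 against replicates 1 and 2. Replicates 1 and 2 of Inf gave 4.64. Without Inf replicate 3, the interaction was called higher for 331 genes and lower for 322, in place of 225 and 236. Total counts limit the precision most for Cebpa and Zfp423, with as few as 10 and 27 counts in a library.

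The alternatives were a replicate block, each library left out, only the libraries compared, no filter on low counts or a mean of at least 50, scaling by library size or by DESeq2's size factors, DESeq2 itself, log2 fold change thresholds of 0, 0.5 and 1, and an adjusted p of 0.01. The single-cell, qRT-PCR, protein and animal data of the study were not analysed here.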

Additional observations from a re-analysis of the deposited data

Results flagged for a closer look

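The response to IL-4/13 differed between cells with and without Inf for 2 of the 10 members, by edgeR's test of the interaction. For Fabp4 the difference was -1.14 on the log2 scale (SE 0.16, adjusted p = 6.3e-05), from a response of 0.50 without Inf to -0.64 with it. Leaving out single libraries gave -1.27 to -0.96, and DESeq2 called it as well. The Fabp4 response without Inf was 0.32 and not called without IL-4/13 replicate 3. For Dlk1 the difference was 0.51 (SE 0.06, adjusted p = 1.8e-06), from -0.54 without Inf to -0.03 with it, and 0.47 to 0.55 without single libraries. Fabp4 stood at 12.2, 10.7 and 11.0 CPM in control and Dlk1 at 1651, 1552 and 1691 CPM, so both were measured well above the filter on low counts. Their causes were not tested.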

How the results depend on the processing

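With a replicate block, no filter, a minimum mean of 50 counts, scaling by library size or DESeq2's size factors, or DESeq2 itself, the number of members called in each direction stayed within 1.5 times the reported one, except that the falls in IL-4/13 were 1 instead of 2 with the filter at 50 counts, which tests 8 members, and that the falls in the interaction were 2 instead of 1 with DESeq2 and with no filter, the second being Cebpd. No shared effect of the replicate number was seen, since same-numbered libraries correlated between -0.15 and 0.05 in their deviations from the condition means. Whether same-numbered libraries were set up together is not given. The replicate block gave 4 rises and 6 falls in Inf and the reported count in each other comparison. No library was closest to one of its own number in another condition (0 of 12). With a log2 fold change threshold of 0, IL-4/13 had 4 falls. At 0.5, IL-4/13 + Inf against Inf had 0 rises and 2 falls, and IL-4/13 + Inf against IL-4/13 had 2 falls. At 1, IL-4/13 had 0 rises and 0 falls, Inf had 3 falls, IL-4/13 + Inf had 2 rises and 2 falls against control, 0 and 0 against Inf and 1 fall against IL-4/13, and the interaction had 0 rises. At an adjusted p of 0.01, IL-4/13 had 1 fall.

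Leaving out 1 library at a time gave 0 to 1 rises and 1 to 3 falls in IL-4/13, 4 rises and 4 to 6 falls in Inf, 4 rises and 5 to 6 falls in IL-4/13 + Inf against control, 3 to 4 rises and 3 to 4 falls against IL-4/13, and 1 to 2 falls in the interaction. The rise in IL-4/13 (Fabp4) was lost without IL-4/13 replicate 3, its second fall (Cebpa) without control replicate 1 or IL-4/13 replicate 1 or 2, and the second fall in the interaction (Cebpd) appeared without Inf replicate 2. Of the values of single members without 1 library, 687 kept their direction and side of the threshold, 20 were no longer called, 5 were newly called and 8 changed sign. Those that changed sign were near 0 and none was called: Cebpd in IL-4/13 (-0.16 to 0.0090, above 0 without IL-4/13 replicate 1), Dlk1 in IL-4/13 + Inf against Inf (-0.064 to 0.0088, above 0 without Inf replicate 1 or IL-4/13 + Inf replicate 3), Zfp423 in the same comparison (-0.081 to 0.36, below 0 without IL-4/13 + Inf replicate 2) and against IL-4/13 (-0.21 to 0.21, below 0 without replicate 2 of either condition, and -0.0035 with library size alone), and the Lpl interaction (-0.024 to 0.088, below 0 without IL-4/13 replicate 3 or IL-4/13 + Inf replicate 1). Plin2 in IL-4/13 + Inf against control was 0.25 and not called with library size alone. Fabp4 per kb was 18.1 CPM in IL-4/13 and 21.6 CPM in IL-4/13 + Inf with the protein-coding transcript, an alternative chosen after the data were seen, in place of 3.84 and 4.58 CPM. Where no other value is given, the cause was not tested. The counts of Cebpa and Zfp423 limit what these libraries can show for them.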
